A study of Homo sapiens with 2 samples.

Results

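The genes described here encode the proteins of the cytosolic ribosome. They were taken as the autosomal protein-coding genes of the GRCh37 annotation whose symbol is RPL or RPS followed by a number, or RPLP0, RPLP1 and RPLP2, without the L paralogues and the RPS6K kinases. This gave 72 of 19229 autosomal protein-coding genes, 29 for the small subunit (RPS) and 43 for the large subunit (RPL). The rule used names and not methylation values, although the set was picked with earlier results of these data known. The study sequenced bisulfite-converted genomic DNA of 2 established acute myeloid leukaemia (AML) cell lines, with 1 library per line. OCI-AML3 is labelled DNMT3A mutant (heterozygous, according to the study) and OCI-AML5, which the study calls AML5, is labelled DNMT3A wild type. The study cultured both as their supplier specifies, and no treatment is labelled. DNMT3A places methyl groups on cytosines that were not methylated before, so the comparison asks how the methylome differs between a line with and a line without the mutation. Each line is 1 cell population with its own history, and the mutation and all other differences between the lines cannot be told apart.

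Ribosomal proteins are assembled with ribosomal RNA into a small subunit, which decodes the messenger RNA, and a large subunit, which joins the amino acids. Their genes are housekeeping genes that are transcribed strongly in every dividing cell, mostly from start sites in unmethylated CpG islands. Their transcripts typically begin with a cytosine followed by a run of pyrimidines, the terminal oligopyrimidine (TOP) tract, through which their translation is controlled together. In active genes the start site is usually free of methylation and the transcribed body is methylated. No RNA was analysed here, so the values below are DNA methylation only.

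In whole-genome bisulfite sequencing the methylation level of a CpG dinucleotide is the share of reads that still show a cytosine. The tables held 902802339 calls for OCI-AML3 and 894828667 for OCI-AML5, with medians of 27 and 30 calls per nuclear CpG. Levels were computed where a CpG dinucleotide had more than 5 reads in each line and averaged over the CpG dinucleotides of a region. Differences are given as OCI-AML3 minus OCI-AML5 in percentage points. With 1 library per line there is no replicate check of any difference between the lines. The Wilson 95% intervals and the exact test below cover read sampling only, and pooled intervals count every call as independent although calls from the same read are not. Of the 72 genes, 71 had CpG dinucleotides around the start that passed this minimum.

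The start sites of 5 genes are printed to show the shared design of these promoters. Each run has 60 bases before and 20 bases from the first transcribed base of the canonical transcript, 5′ to 3′ on the gene's strand in GRCh37, and capitals mark the run of C and T at the start. The first 4 genes had large downstream differences, and RPL23A stands for the genes without a long run.
RPS2 (chr16:2014808-2014887, minus strand): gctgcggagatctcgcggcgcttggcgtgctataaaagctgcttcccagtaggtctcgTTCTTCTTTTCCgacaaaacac
RPS18 (chr6:33239792-33239871, plus strand): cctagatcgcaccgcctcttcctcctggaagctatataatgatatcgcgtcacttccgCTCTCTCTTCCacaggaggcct
RPL26 (chr17:8286492-8286571, minus strand): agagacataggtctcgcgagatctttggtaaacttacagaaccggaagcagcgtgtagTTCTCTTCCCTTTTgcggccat
RPLP0 (chr12:120638895-120638974, minus strand): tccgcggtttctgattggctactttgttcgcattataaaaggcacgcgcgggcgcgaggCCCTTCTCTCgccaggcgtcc
RPL23A (chr17:27046943-27047022, plus strand): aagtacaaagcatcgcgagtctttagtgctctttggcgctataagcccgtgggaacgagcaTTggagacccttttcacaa
A start on C followed by at least 4 more pyrimidines was found in 54 of the 72 genes (75%), against 4.53% of all autosomal protein-coding genes. The run touching the start was 12 bases long in RPS2, 11 in RPS18, 14 in RPL26, 10 in RPLP0 and 2 in RPL23A. The median run was 11 bases in the ribosomal protein genes and 3 in all genes.

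Around these starts both lines were unmethylated, and the lines parted downstream of the start. In the 250 bp from the canonical start, the mean level over the ribosomal protein genes was 0.0941% in OCI-AML3 and 0.106% in OCI-AML5. From 1000 to 1250 bp downstream the levels were 2.69% and 25.9%. The gap was widest from 2000 to 2250 bp downstream, where OCI-AML3 had 26.4% and OCI-AML5 80.9% (−54.5 percentage points, 283 CpG dinucleotides). Between 4000 and 4250 bp downstream it was still −19.6. Upstream the gap was widest from 1250 to 1000 bp before the start, at −17.3. Methylation thus returned within about 2 kb of the start in OCI-AML5 and over a longer distance in OCI-AML3, on the transcribed side.

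To give each gene a value in that stretch, the mean level from 1 to 3 kb downstream of the canonical start was taken, a region chosen after the profile had been seen. All 71 genes with at least 10 CpG dinucleotides there were lower in OCI-AML3, as were 82.2% of all genes. Their median level was 20.6% in OCI-AML3, with quartiles of 5.25% and 38.2%, and 73.6% in OCI-AML5, with quartiles of 55.3% and 84.8%. The median difference was −41.6 percentage points, against −6.57 over 17092 autosomal protein-coding genes. A decrease of over 20 percentage points was found in 64 of 71 genes (90.1%), against a background of 16.7%, and an increase of that size in 0 of 71, against 2.00%. The pooled shares of methylated calls had Wilson 95% intervals that did not overlap between the lines in 71 of 71 genes, all lower in OCI-AML3, against 61.9% of all genes. Levels under 10% were found in 25 genes in OCI-AML3 and in 1 gene in OCI-AML5. The mirrored stretch from 1 to 3 kb upstream gave a median difference of −6.13 in 69 genes, against −6.22 over all genes, and 5 of these 69 were lower by over 20 percentage points (7.25% against 12.5%).

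RPL26, a large-subunit protein near the exit of the peptide tunnel, was lowest against OCI-AML5. Its level was 0.764% in OCI-AML3 and 86.2% in OCI-AML5 over 35 CpG dinucleotides, and each of the 35 passed the exact test as lower. RPL35A, a large-subunit gene mutated in some patients with Diamond-Blackfan anaemia, had 3.02% and 85.4%. RPS2, which lies at the messenger RNA entry of the small subunit, had 5.25% and 86.6%, with pooled intervals of 6.08% to 8.09% and 86.6% to 89.2%. In these 3 genes the stretch was close to unmethylated in 1 line and close to the level of other gene bodies in the other. At the other end, RPS16 had 82.4% and 95.1%, so that the stretch was methylated in both lines. RPL41, the shortest gene of the set at 1378 bp, had 0.0513% and 2.10%, so that the stretch was unmethylated in both. Most of that stretch lies past the end of RPL41. RPL41 and RPS16 were named for these values after they were seen.

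The sequence of the altered stretches is shown for 3 genes. Each run is 120 bases of intron, 5′ to 3′ on the gene's strand in GRCh37, with every CpG in capitals. The 3 were chosen, after their values were seen, from the 8 genes with the largest differences among those that hold such a stretch. In each gene it is the stretch within 1 to 3 kb of the start with the most CpG dinucleotides, under 2 limits. It holds no exon of a protein-coding gene and no 12-base word found more than 500 times on the chromosome. The word limit was meant to keep out interspersed repeats, but no repeat annotation was used, so diverged or partial copies can remain in the 8 stretches.
RPL26 (chr17:8284488-8284607, minus strand): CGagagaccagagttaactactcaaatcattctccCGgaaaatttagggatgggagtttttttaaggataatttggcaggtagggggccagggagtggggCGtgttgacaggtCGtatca
RPS18 (chr6:33242451-33242570, plus strand): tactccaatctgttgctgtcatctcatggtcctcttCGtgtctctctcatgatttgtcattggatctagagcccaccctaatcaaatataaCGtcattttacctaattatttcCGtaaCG
RPL32 (chr3:12880184-12880303, minus strand): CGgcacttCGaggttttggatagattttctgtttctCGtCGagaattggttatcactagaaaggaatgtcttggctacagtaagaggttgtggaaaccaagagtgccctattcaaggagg
The RPL26 stretch starts 1904 bp from the start site and was methylated in 2 of 71 calls in OCI-AML3 and 119 of 125 calls in OCI-AML5. The RPS18 stretch starts 2599 bp from the start site and was methylated in 4 of 122 and 117 of 146 calls. The RPL32 stretch starts 2761 bp from the start site and was methylated in 14 of 139 and 102 of 115 calls. Each of the 4 CpG dinucleotides in each stretch was lower in OCI-AML3 by the exact test. Of the other 5 stretches, those of RPL23A and RPL7A were lower at each of 4 CpG dinucleotides, and that of RPS9 at 3 of 5. The stretches of RPL24 and RPS15A, which begin 1024 and 1014 bp from the start, were mostly unmethylated in both lines, with 0 of 103 and 19 of 83 methylated calls in RPL24 and 0 of 159 and 1 of 206 in RPS15A.

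Single CpG dinucleotides were tested with Fisher's exact test on methylated and unmethylated calls, two-sided, with Benjamini-Hochberg adjustment over 24454751 nuclear CpG dinucleotides at 0.05. Of the 2358 tested from 1 to 3 kb downstream of the ribosomal protein genes, 1465 were lower in OCI-AML3 (62.1%), against a background of 14.7% of all nuclear CpG dinucleotides, and 3 were higher (0.127%), against 3.86%. In the same stretch of all autosomal protein-coding genes 17.5% were lower and 5.52% higher. Of the 3201 from 1 to 3 kb upstream of the ribosomal protein genes, 433 were lower (13.5%) and 48 higher (1.50%). The high share of lower CpG dinucleotides was therefore on the downstream side. Leaving out exonic CpG dinucleotides gave a downstream median difference of −47.4 in the 39 genes that then still had 10 of them, against −6.58 over all genes.

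The gene body was taken as the annotated gene beyond 2 kb of the most upstream start, and 62 ribosomal protein genes had at least 10 CpG dinucleotides there. All 62 were lower in OCI-AML3, as were 93.0% of all autosomal protein-coding genes. The median level was 62.7% in OCI-AML3 against 90.1% in OCI-AML5. The median body difference was −19.7 percentage points, against −4.89 for all genes. The decrease passed 20 percentage points in 30 of 62 genes (48.4%), against a background of 7.39%, and an increase of that size was found in 0 of 62, against 0.528%. The pooled intervals did not overlap in 61 of 62 genes, with RPS16 the exception. Intervals that did not overlap, with the lower share in OCI-AML3, were found in 86.1% of all genes. The other 10 genes had fewer than 10 such CpG dinucleotides.

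The 8 largest body differences were found in genes of both subunits. RPS2 had 9.74% in OCI-AML3 and 90.2% in OCI-AML5 over 28 CpG dinucleotides. RPS18, a protein of the small-subunit head, had 12.4% and 86.9%, and RPL23A, which lies at the peptide exit, had 14.5% and 85.0%. RPL11 had 23.0% and 84.5%, and RPLP0, the base of the stalk that recruits translation factors, had 23.7% and 89.1%. These 5 bodies lay between 9.74% and 23.7% in OCI-AML3. RPL17 had 29.2% and 88.3%, RPL13 30.6% and 86.1%, and RPL12, which sits at the stalk base, 37.7% and 91.0%. The smallest differences were −3.36 in RPL36, −3.45 in RPS16, −3.77 in RPL22 and −3.99 in RPS19. In RPL36 and RPL22 the canonical start lies 15348 and 9794 bp from the most upstream one, so their bodies hold the canonical start region. From 1 to 3 kb downstream of the canonical start, RPL36 had 13.5% in OCI-AML3 and 61.0% in OCI-AML5, and RPL22 had 61.3% and 78.6%.

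The size of the body difference moved with gene length. Ribosomal protein genes are short, with a median length of 5212 bp against 27568 bp for all genes. Among the 23 with a body value and a length of at most 5 kb, 18 were lower by over 20 percentage points and the median difference was −33.6. Among the 24 from 5 to 10 kb, 12 passed and the median was −20.01, and among the 15 longer than 10 kb, 0 passed and the median was −11.2. From 1 to 3 kb downstream, 14 of these 15 longer genes were lower by over 20 percentage points. The 15 include RPL4, RPL36, RPL22 and RPL6, whose canonical starts lie 19677, 15348, 9794 and 9233 bp from the most upstream ones. Their bodies therefore hold the canonical start region, and how far this shaped the length trend was not tested. RPS24, with an annotated length of 23054 bp, had −19.8 in the body and −63.0 from 1 to 3 kb, and RPS19 had −3.99 and −34.2. In the last 500 bp of the genes the mean levels were 58.8% and 84.2%, and in the first 500 bp past the annotated end 58.8% and 78.9%. All genes differed by −8.12 and −8.07 in these bins. The part of the 1 to 3 kb stretch inside the genes differed by −45.6, and the part past the gene end, present in 12 genes, by −27.0. The part past the end held 235 CpG dinucleotides. RPL41 has 79 in its 1 to 3 kb stretch, most of which lies past its end, at 0.0513% and 2.10%. How far RPL41 shaped the −27.0 was not tested.

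Among 1614 autosomal genes of at most 10 kb with less than 10% methylation within 500 bp of the start in both lines, the median difference from 1 to 3 kb downstream was −6.77, and 18.9% were lower by over 20 percentage points. The 52 ribosomal protein genes among them had a median of −41.3, and 46 of the 52 passed. In the gene body the median difference was −4.48 in the 1347 genes of this kind with a value, and −26.8 in the 44 ribosomal protein genes among them. This comparison set was added after the data were seen.

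The unmethylated domain at each start was measured outward from the canonical start to the first of 3 consecutive CpG dinucleotides with levels of at least 50%. Its median width was 3604 bp in OCI-AML3 and 2099 bp in OCI-AML5. The median difference was 1230 bp, against 188 bp over 18952 genes. The domain was wider in OCI-AML3 in 70 of 71 ribosomal protein genes (98.6%), against a background of 65.8%, equal in RPS14 and narrower in none. It was wider by over 1 kb in 43 of 71 genes, against 16.8% of all genes. Of all genes, 2140 had a width of 0 in OCI-AML3 and 2945 in OCI-AML5, and no ribosomal protein gene did. Related groups described below widened too, by a median of 1070 bp in translation factors (100% wider) and 716 bp in ribosome biogenesis genes (94.9%). The median was 327 bp in the compact genes with an unmethylated core (81.6%) and 249.5 bp in mitochondrial ribosomal genes (74.4%). Downstream the median reach was 2648 bp in OCI-AML3 and 1291 bp in OCI-AML5, with a median difference of 1009 bp, against 21 bp over all genes. Upstream it was 859 and 711 bp, with a median difference of 101 bp, against 12 bp. The downstream edge was farther out in 69 genes and nearer in none, against 51.7% and 15.4% of all genes. The upstream edge was farther out in 45 and nearer in 9, against 51.1% and 14.4%. The domain of RPS2 reached 5669 bp downstream in OCI-AML3 and 979 bp in OCI-AML5, past the end of its 2784 bp gene. RPS18 reached 5609 and 1175 bp, and RPS24 4932 and 1113 bp. The walk outward did not stop at other genes, so a long reach can run into the start region of a neighbouring gene.

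**Figure D1:**
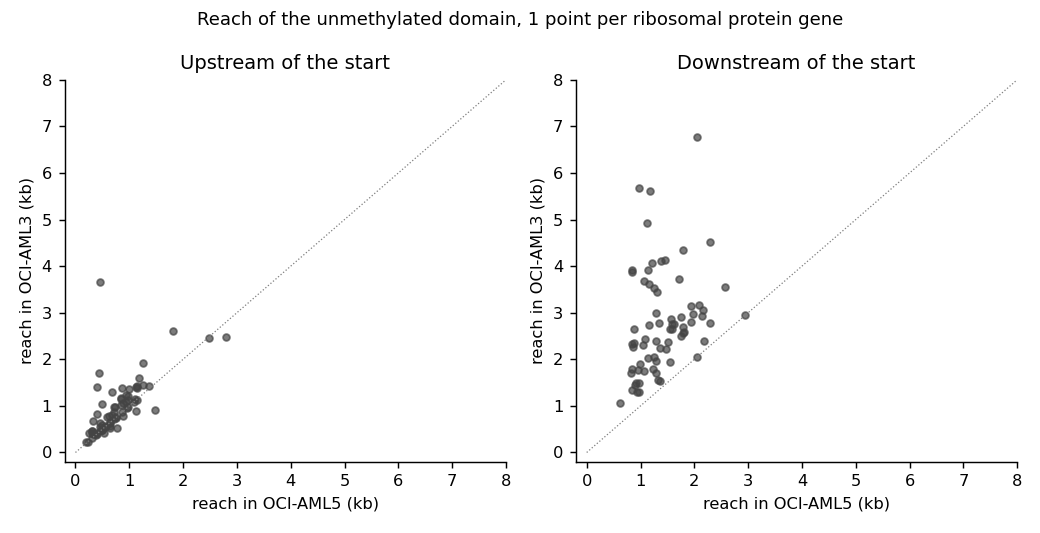
Reach of the unmethylated domain (kb) in OCI-AML3 against OCI-AML5, upstream (left) and downstream (right) of the canonical start, with 1 point for each of the 71 ribosomal protein genes with reads and a dotted line where both lines are equal. Downstream 69 points lie above the line and none below it, and upstream 45 lie above and 9 below.

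Because the promoter window of 2 kb on either side of the most upstream start holds the unmethylated core, it showed little of this. The median window level was 18.0% in OCI-AML3 against 26.0% in OCI-AML5, a median difference of −6.91 percentage points, against −4.69 over 18887 promoters. Of 71 windows 68 were lower and 3 higher in OCI-AML3, and 85.0% of all promoters were lower. A decrease of over 20 percentage points was found in 4 of 71 (5.63%), against a background of 8.58%, and an increase of that size in 0 of 71, against 1.68%. At a threshold of 10 percentage points the order turned, with 23 of 71 lower (32.4%) against 26.0% of all promoters. The exact test called 1455 of 10462 CpG dinucleotides in these windows lower (13.9%, against 12.9% in all promoters) and 74 higher (0.707%, against 4.80%). Within 500 bp of the canonical start the median level was 0.128% in OCI-AML3 and 0.274% in OCI-AML5, against 3.70% and 7.94% in all genes.

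Of the windows past 20 percentage points, 3 are described here. Upstream distances are counted from the most upstream start, and the 1 to 3 kb stretch from the canonical start. RPS13, a small-subunit gene, had 16.8% in OCI-AML3 and 45.0% in OCI-AML5, with 12.9% and 93.9% in the 250 bp that begin 1250 bp upstream and 30.4% and 87.5% from 1 to 3 kb downstream, so that it changed on both sides. RPS15, a small-subunit head protein, had 15.3% and 36.8%. RPL37 had 4.84% and 25.3%. Among the next in size were RPL35A (−19.9), RPS2 (−17.0) and RPL26 (−16.7). The 3 windows with higher levels in OCI-AML3 were RPS3A at 17.1% and 10.9%, RPL15 at 8.99% and 6.43%, and RPL7 at 7.38% and 6.13%. RPL7 was lower, at 2.03% and 4.70%, around its canonical start 2156 bp away. RPS3A held 17 of the 74 CpG dinucleotides called higher. RPS3A, RPL15 and RPL7 were named for this direction after it was seen, and all 3 were lower downstream, by −49.1, −41.6 and −42.0.

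In a few genes methylation came within 500 bp of the start. Over all ribosomal protein genes, the mean level from 500 to 250 bp upstream was 6.96% in OCI-AML3 and 11.0% in OCI-AML5. In the 250 bp before the start it was 0.109% and 0.367%, and from 250 to 500 bp downstream 0.0990% and 0.344%. Most of this methylation thus lay over 250 bp upstream, and not at the start itself. Within 500 bp of the canonical start, 4 of 71 genes exceeded 10% in OCI-AML3 and 6 in OCI-AML5, against 41.1% and 47.4% of all genes. RPL6 had 24.8% and 29.4%, RPL31 14.5% and 12.6%, RPS7, a small-subunit gene, 12.3% and 14.3%, and RPL11 11.2% and 15.5%. In OCI-AML5 alone RPS15A reached 17.6% and RPL29 15.1%. Of these 6 genes, RPL31 was higher in OCI-AML3 and the others lower. In 6 genes the canonical start lay more than 2 kb from the most upstream annotated one. The promoter window missed these starts, and the gene body as taken here held them. Among these 6 genes, RPL22 was offset by 9794 bp.

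The genes that signal defects of ribosome assembly were described by their roles. RPL5 and RPL11 bind the smallest ribosomal RNA of the large subunit and, when assembly stalls, bind MDM2 and so raise p53. RPL5 had 21.1% in OCI-AML3 and 71.0% in OCI-AML5 from 1 to 3 kb downstream, and RPL11 had 2.35% and 68.1%. Both bodies were also lower, by −30.2 and −61.4. Among the stalk genes, RPLP0 had 6.74% and 81.9% downstream, RPLP2 37.8% and 75.8%, and RPLP1 4.18% and 21.8%. The unmethylated domain of RPLP1 reached 1579 bp downstream in OCI-AML5, against a median of 1291 bp.

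Inherited mutations of several of these genes cause Diamond-Blackfan anaemia, a failure of red cell production. RPS19, the gene most often mutated in it, had 31.0% and 65.2% from 1 to 3 kb downstream. RPS24 had 20.6% and 83.6%, RPS10 24.3% and 86.1%, and RPS7 2.85% and 78.0%. RPS26 had 38.0% and 61.6%. These differences, with RPL35A above, ranged from −23.6 in RPS26 to −82.4 in RPL35A. RPS14, which lies in the deleted region of the 5q− syndrome, had 63.0% and 81.7%, and its domain was 2542 bp wide in both lines. RPL22, a large-subunit gene that is mutated in some leukaemias, had 61.3% and 78.6%. RPS14 and RPL22 were below 20 percentage points in this stretch. RPS15, which is mutated in some chronic lymphocytic leukaemias, had 22.2% and 86.0%.

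The difference was found in both subunits. From 1 to 3 kb downstream the median difference was −37.4 in 28 small-subunit genes and −42.0 in 43 large-subunit genes, with 24 and 40 of them lower by over 20 percentage points. In the gene body the medians were −23.4 in 23 and −19.2 in 39 genes.

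Other genes of translation were compared from lists chosen with earlier results known. The X-linked ribosomal protein genes RPL10, RPL36A, RPL39 and RPS4X, which the rule left out, had a median difference from 1 to 3 kb downstream of −48.5, and 3 of the 4 were lower by over 20 percentage points. RPL36A had 2.11% and 81.7%. A list of 4 cytosolic ribosomal genes with other names, among them RPSA, FAU and RACK1, had a median of −28.3, and 3 of the 4 passed. The 25 translation factors with a value had −21.2, with 13 past 20 percentage points, among them the elongation factor EEF2 at 2.69% and 65.4%. The 37 ribosome biogenesis genes had −15.9, with 14 past, and the 7 paralogues −10.9, with 2 past. The 73 mitochondrial ribosomal genes, which encode the proteins of the organelle's own ribosome, had −5.44, and 5 passed (6.85%, against 16.7% of all genes). In the gene body the medians were −9.99 for translation factors, −4.12 for biogenesis genes and −3.27 for mitochondrial ribosomal genes. The ribosomal proteins of the cytosol and those of mitochondria thus stood on opposite sides of the all-gene share.

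**Figure D2:**
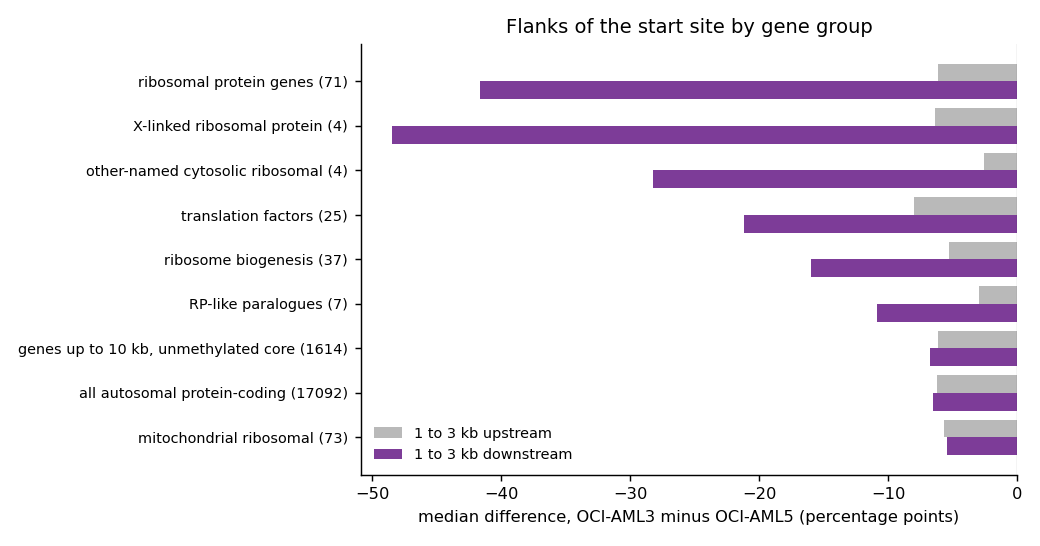
Median methylation difference, OCI-AML3 minus OCI-AML5 (percentage points), from 1 to 3 kb upstream (grey) and downstream (purple) of the canonical start for 9 gene groups, with the number of genes with a downstream value in parentheses. The downstream bar is −41.6 for the ribosomal protein genes and −5.44 for the mitochondrial ribosomal genes, and all grey bars lie between −2.55 and −8.01.

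Features of the genes outside the rule were set beside these values. Of the 72 genes, 26 carry at least 1 small nucleolar RNA (snoRNA) within the gene (36.1%, against 2.07% of all genes). From 1 to 3 kb downstream the median difference was −43.2 in the 26 hosts and −41.0 in the other 45 genes with a value. The 54 genes with a TOP start had −41.4 and the 17 others with a value −41.6. The ETS motif CCGGAAGT, searched on both strands within 250 bp of the canonical start, was found in 10 of the 72 genes (13.9%) against 6.70% of all genes. The YY1 motif AAGATGGC, searched the same way, was found in 12 (16.7%) against 5.25%. These shares were not particular to the set. The ETS share was 13.6% in the compact genes with an unmethylated core, 15.4% in translation factors, 17.9% in mitochondrial ribosomal and 30.8% in ribosome biogenesis genes. The YY1 share in these groups was 7.66%, 15.4%, 29.5% and 17.9%. The ETS letters contain a CpG, and it was unmethylated in all calls in both lines at each of the 10 matches, over 31 to 82 calls in OCI-AML3 and 16 to 63 in OCI-AML5. A match is a description of letters and not a measured binding site. A start of another protein-coding gene on the opposite strand lay within 1 kb in 13 genes (18.1%), against 10.1% of all genes. That share was 23.7% in the compact genes, 15.4% in translation factors, 34.6% in mitochondrial ribosomal and 30.8% in ribosome biogenesis genes.

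Processed pseudogenes are copies of spliced transcripts pasted elsewhere in the genome, and ribosomal protein genes have left more of them than most genes. The annotation names 1320 autosomal ones after the 72 genes, led by 128 of RPL21, and 1120 had at least 3 CpG dinucleotides past the read minimum. Their median level was 87.1% in OCI-AML3 and 92.2% in OCI-AML5, with a median difference of −3.67. Of the 1120, 858 were lower (76.6%) and 261 higher, and 145 were lower by over 20 percentage points (12.9%). No share over other pseudogenes is given here. Among all autosomal protein-coding gene bodies, which needed at least 10 CpG dinucleotides, 93.0% were lower and 7.39% lower by over 20 percentage points. The exons of the genes themselves, starts included, had mean levels of 25.6% and 38.1%. Most copies were thus methylated in both lines. A level under 20% was found in 31 copies in OCI-AML3, in 8 in OCI-AML5 and in 5 in both. RPL5P17 had 3.38% and 67.0%, and RPL21P42 had 7.03% and 78.2%, both named after their values were seen.

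Because pseudogenes can make exonic reads ambiguous, coverage was compared between parts of the genes. The read minimum was met at 96.4% of exonic, 94.9% of intronic and 96.0% of upstream CpG dinucleotides of the ribosomal protein genes, and at 95.03%, 89.9% and 94.2% in all genes. From 1 to 3 kb downstream the mean number of reads per CpG lay between 14.1 and 82.6 in OCI-AML3 and between 16.9 and 68.9 in OCI-AML5, with medians of 39.6 and 38.0. Low promoter coverage was found in RPL17 (78.8% of CpG dinucleotides), RPL11 (88.7%), RPL34 (90.9%) and RPL21 (92.7%).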

How the data were processed

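Whole-genome bisulfite sequencing libraries of OCI-AML3 and OCI-AML5 (1 each, no replicates) were used. The authors aligned paired-end reads to hg19 with Bismark and, per the submitters' processing notes, Bowtie 0.12.8. The deposited tables hold raw counts for each CpG, 1 column of methylated and 1 of unmethylated calls, both strands added. Removal of duplicate reads is not given in the sources used here. The column of methylated calls was settled from mitochondrial DNA, where 0.168% and 0.101% of calls were methylated.

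Levels were computed where both lines had more than 5 reads at a CpG, with regions from GENCODE 44 lifted to GRCh37 and at least 10 CpG dinucleotides per region (3 per pseudogene). The canonical start is that of the transcript tagged canonical in the annotation. Start sites, introns and motifs were read from the GRCh37 genome sequence. No test against variation between cultures was possible. Fisher's exact test with Benjamini-Hochberg adjustment was tested on simulated data. The genes and lists were chosen with earlier results of these data known. Named genes were the 8 with the largest promoter difference, the 8 with the largest body difference, the 5 with the lowest promoter coverage, RPL5, RPL11, the stalk genes, RPL22, RPS14, RPS15, RPS19 and other Diamond-Blackfan genes (RPS7, RPS10, RPS24, RPS26, RPL35A), with exceptions stated. Not all genes that meet this rule are reported here. Alternatives covered minimum reads, window, start site, averaging, exonic CpG dinucleotides, thresholds and gene set. Calculations were run in Python 3.11.15 with pandas 2.3.3, scipy 1.17.1, numba 0.67.0 and numpy 2.4.6, and figures drawn with matplotlib 3.10.9.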

Additional observations from a re-analysis of the deposited data

How the results depend on the processing

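No paired analysis was possible because each line had 1 library. No median or count over the ribosomal protein genes changed direction under the alternatives tried. Of 252 alternative values of single genes named by the rule, 3 lost their direction, namely the promoter differences of RPL13 (0.0216) and RPS19 (0.00343) in a 500 bp window and of RPL35A (1.36) in a 1 kb window. RPL7, named outside the rule, lost its direction with the canonical start (−2.67). The cause of the shifts was not tested. The median promoter difference of the ribosomal protein genes was −6.67 percentage points with at least 10 reads, −2.63 in a 1 kb window (all promoters −3.11), −0.364 in a 500 bp window (all promoters −1.06), −8.79 from pooled calls, −8.44 from the canonical start and −6.30 without exonic CpG dinucleotides. In both smaller windows the ribosomal protein genes thus differed less than all promoters, where in the 2 kb window they differed more. Promoters lower by over 20 percentage points numbered 0 in a 1 kb window (9.30% of all promoters), 1 in a 500 bp window (9.45%) and 2 from pooled calls (9.93%), and 23 passed at 10 percentage points (26.0%). The median gene body difference was −18.3 with at least 10 reads, −11.5 over the whole gene, −17.3 without exonic CpG dinucleotides and −19.4 with further cytosolic ribosomal genes added, and, with regions chosen after seeing the data, −41.6 from 1 to 3 kb downstream and −47.4 there without exonic CpG dinucleotides. Bodies past 20 percentage points numbered 16 of 71 over the whole gene (6.41% of all genes), 17 of 41 without exonic CpG dinucleotides (7.49%) and 64 of 71 from 1 to 3 kb downstream (16.7%), and 52 of 62 passed at 10 percentage points (24.8%). The median widening of the unmethylated domain was 1185 bp at a level of 30%, 1397 bp with 5 CpG dinucleotides and 1165 bp with at least 10 reads. The median pseudogene difference was −3.29 with at least 10 CpG dinucleotides and −3.39 from pooled calls. Depth limits single CpG dinucleotides, and 1 library per line limits every comparison.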
